A study of Danio rerio with 10 samples.

Results

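The transcription factor genes sox10 (ENSDARG00000077467) and nkx2.2a (ENSDARG00000053298) of the oligodendrocyte lineage were followed in RNAseq libraries of oligodendrocyte progenitor cells (OPCs) and oligodendrocytes (OLs) of the adult zebrafish spinal cord. They were chosen by identifier, as 2 of the 31388 features of the deposited table. No measured value was part of that rule, but earlier results of these data were known. OPCs were the GFP-positive cells FACsorted from Tg(olig2:eGFP) fish and OLs the GFP-positive cells FACsorted from Tg(mbp:eGFP) fish, with 5 biological replicates of each, so that all libraries came from adult fish carrying a GFP transgene. In both lines the nuclear dye Vybrant DyeCycle Violet was part of the gate, up to 5 spinal cords were dissociated together, and cells passed a strainer of 20 µm for OPCs and 35 µm for OLs. The olig2:GFP transgene also labels some radial glia next to the central canal, and line, strainer and population cannot be told apart.

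Sox10 is a SoxE protein with an HMG box that binds DNA. It is found in neural crest, Schwann cells and the whole oligodendrocyte lineage, and in mouse it is needed for myelin gene expression in mature oligodendrocytes. Nkx2.2 is a homeodomain repressor of the ventral neural tube that is induced by Sonic hedgehog. It marks the progenitor domain next to the floor plate, and in mouse it acts in oligodendrocyte precursors at the onset of differentiation, where it represses Pdgfra. The comparison asks whether these factors of the lineage differ between its precursor and its mature stage.

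Library totals ranged from 11072526 to 11960408 counts in OPCs and from 13937725 to 20225093 counts in OLs. Over the 12292 features that passed a filter on low counts, log2 profiles of OPC1 lay nearer to OLs than those of the other OPC libraries. Its mean Pearson's r to the OL libraries was 0.829, against 0.722 to 0.792 for OPC2 to OPC5. Myelin mRNAs were abundant in every OPC library. The gene mbpa (ENSDARG00000036186), which encodes myelin basic protein and the protein named in the OL reporter, had 541208 ± 62978 normalized counts in OPCs and 950384 ± 63118 in OLs (± SD, 5 libraries each). In bulk samples such as these, fewer cells of a type and less RNA per cell cannot be told apart.

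The sox10 gene lies on GRCz10 chromosome 3, from 2013057 to 2022138 on the plus strand, and its 4 exon blocks sum to 3205 bases. The nkx2.2a gene lies on chromosome 17, from 42775852 to 42783560 on the minus strand, with 1822 exonic bases in 3 merged blocks, the largest of 1157 bases at the low-coordinate end. Neither gene overlaps another feature of the table. The feature next to sox10, 9944 bases away on the opposite strand, is POLR2F (ENSDARG00000036625), a subunit of RNA polymerases. It had 352 ± 83.7 normalized counts in OPCs and 477 ± 48.4 in OLs (adjusted p = 0.164, edgeR's quasi-likelihood test). On the other side of sox10, 47274 bases away, ENSDARG00000078319 had at most 7 counts in any OPC sample and 13 in any OL sample. Both features beside nkx2.2a were close to silent. PAX1 (ENSDARG00000008203), 55670 bases away, had 0 counts in all 10 libraries, which allows up to 3 counts in each, and amy2al2 (ENSDARG00000009443), 64002 bases away, had at most 1 count in a library.

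The sox10 mRNA was abundant in both populations, with no difference detected. It had 2854, 2322, 2671, 2681 and 4623 normalized counts in OPC1 to OPC5, and 3865, 2910, 2892, 2398 and 4528 in OL1 to OL5. The populations overlapped over nearly their whole range. OPC5 lay well above the other OPC libraries, and OL5 was the highest OL library, followed by OL1. The means were 3030 ± 911 in OPCs and 3319 ± 860 in OLs (± SD, 5 libraries each). The log2 fold change of OPCs over OLs was -0.13 ± 0.22 (SE; adjusted p = 0.793 over the 12292 features, edgeR's quasi-likelihood test). Its 95% interval ran from -0.60 to 0.34, which is 0.658-fold to 1.27-fold, so a difference within that range is not excluded by these libraries. Of all features tested, 11.8% passed an adjusted p under 0.05. Scaling by library size alone turned the sign, with 253 ± 91.8 CPM in OPCs and 223 ± 63.6 in OLs (log2 fold change 0.18, adjusted p = 0.652, edgeR). Without OL5 the log2 fold change was 0.0014, and without OPC5 it was -0.33 (adjusted p = 0.997 and 0.276, edgeR).

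In contrast, nkx2.2a was higher in OPCs, 3.45-fold (95% interval 2.05 to 5.79). It had 247, 526, 708, 938 and 362 normalized counts in OPC1 to OPC5, and 201, 108, 126, 216 and 153 in OL1 to OL5. Every OPC library lay above every OL library, although OPC1 exceeded the highest OL library, OL4, by little. Of the features tested, 8.93% were without overlap and higher in OPCs and 3.68% without overlap and lower, 12.6% in all. The means were 556 ± 275 in OPCs and 161 ± 46.6 in OLs (± SD, 5 libraries each), a log2 fold change of 1.79 ± 0.34 (SE; adjusted p = 0.00344, edgeR's quasi-likelihood test). Among all features, 9.01% were called higher in OPCs and 2.82% lower. The lowest raw count behind these values, 113 reads in OL3, has an exact Poisson 95% interval of 93.1 to 136, which covers counting error only. Without OPC1, the library nearest to OLs, the log2 fold change was 1.97, and over all single libraries left out it ranged from 1.52 without OPC4 to 1.97 without OPC1 (highest adjusted p = 0.0114, edgeR).

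**Figure D1:**
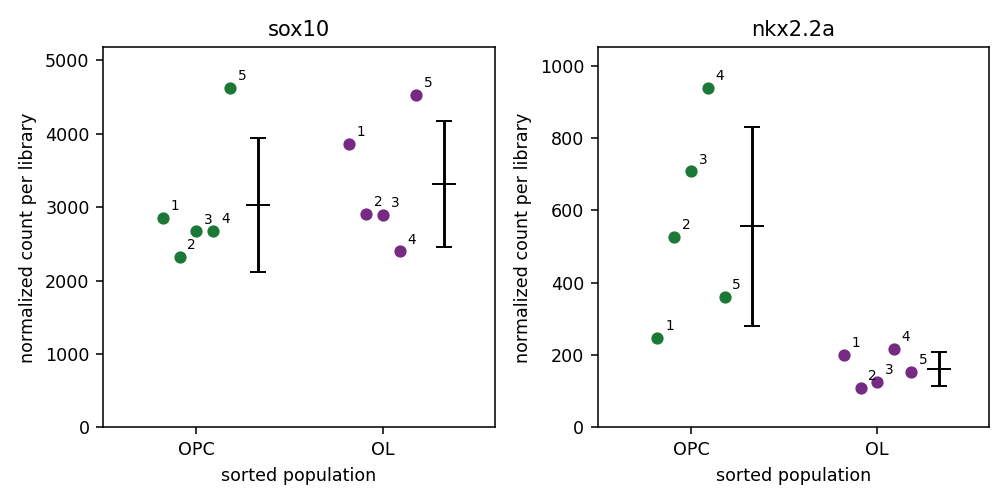
Normalized counts (y axis, linear from 0) of sox10 (left) and nkx2.2a (right) in OPC and OL libraries (x axis). Points are libraries numbered by replicate, and bars are the mean ± SD of 5 libraries. The sox10 points of the populations overlap, from 2322 to 4623 in OPCs and 2398 to 4528 in OLs, whereas all nkx2.2a points of OPCs, 247 to 938, lie above those of OLs, 108 to 216.

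The spread over OPC libraries was wider for nkx2.2a than for sox10, and over OL libraries the genes were closer. For nkx2.2a the highest OPC library had 3.80 times the lowest and the highest OL library 2.00 times the lowest, with coefficients of variation of 49.5% in OPCs and 28.9% in OLs. For sox10 these ratios were 1.99 in OPCs and 1.89 in OLs, with coefficients of variation of 30.1% in OPCs and 25.9% in OLs. Among features averaging 100 normalized counts or more, 83.8% varied less than nkx2.2a in OPCs and 73.3% in OLs, and 54.4% varied less than sox10 in OPCs and 67.4% in OLs. The libraries with the most sox10 were not those with the most nkx2.2a. OPC5 had the most sox10 and, after OPC1, the least nkx2.2a, and OPC4 had the most nkx2.2a with a sox10 count close to the median of OPCs.

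A ratio of the genes within each library does not depend on how libraries are scaled. The number of sox10 reads per nkx2.2a read was 11.6, 4.41, 3.77, 2.86 and 12.8 in OPC1 to OPC5, and 19.3, 26.8, 22.9, 11.1 and 29.6 in OL1 to OL5. Most OPC libraries lay well below the OLs, but OPC1 and OPC5 were above OL4. The log2 ratio with a pseudocount of 1 was 2.55 ± 0.98 in OPCs and 4.37 ± 0.56 in OLs (± SD, 5 libraries each), a difference of -1.82. An exact permutation test over the libraries, two-sided, gave p = 0.0238, where the smallest p that 5 against 5 allow is 0.00794. The genes thus differed from each other in their change between populations. Leaving out each library in turn gave differences of -2.10 to -1.56 and exact p-values of 0.0159 to 0.0476.

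**Figure D2:**
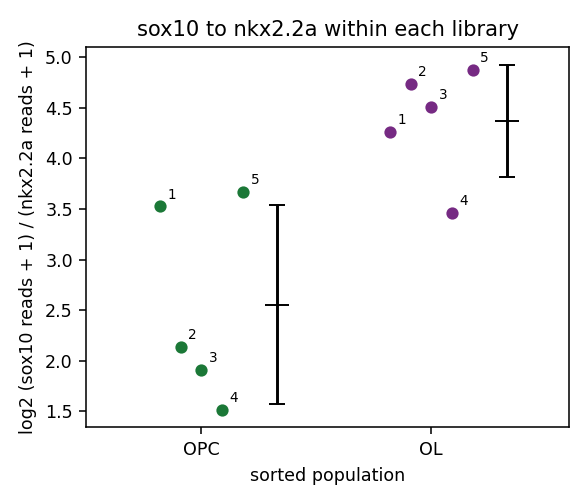
Log2 ratio of sox10 to nkx2.2a reads, each with 1 read added (y axis), in OPC and OL libraries (x axis). Points are libraries numbered by replicate and bars the mean ± SD of 5. The ratio averaged 2.55 in OPCs and 4.37 in OLs, and OPC1 and OPC5 reach the range of OLs.

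Per length of exon, sox10 was the most abundant of the SoxE, SoxD, NK2 and NK6 genes tested. Its level was 945 ± 284 normalized counts per kb in OPCs and 1035 ± 268 in OLs (± SD, 5 libraries each), above 93.9% of all tested features in each population. The level of nkx2.2a was 305 ± 151 normalized counts per kb in OPCs and 88.4 ± 25.6 in OLs, above 82.1% of tested features in OPCs and 59.8% in OLs. In OPCs the next level below sox10 was that of NKX6-2 (ENSDARG00000104735), at 325 ± 54.4 normalized counts per kb, followed by nkx2.2a, and these neighbours did not differ beyond their spread. In OLs, sox10 was followed by NKX6-2 with 505 ± 77.7, then by nkx2.2a and by SOX9 (ENSDARG00000043923) with 78.2 ± 40.6, and the last pair did not differ beyond its spread.

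**Figure D3:**
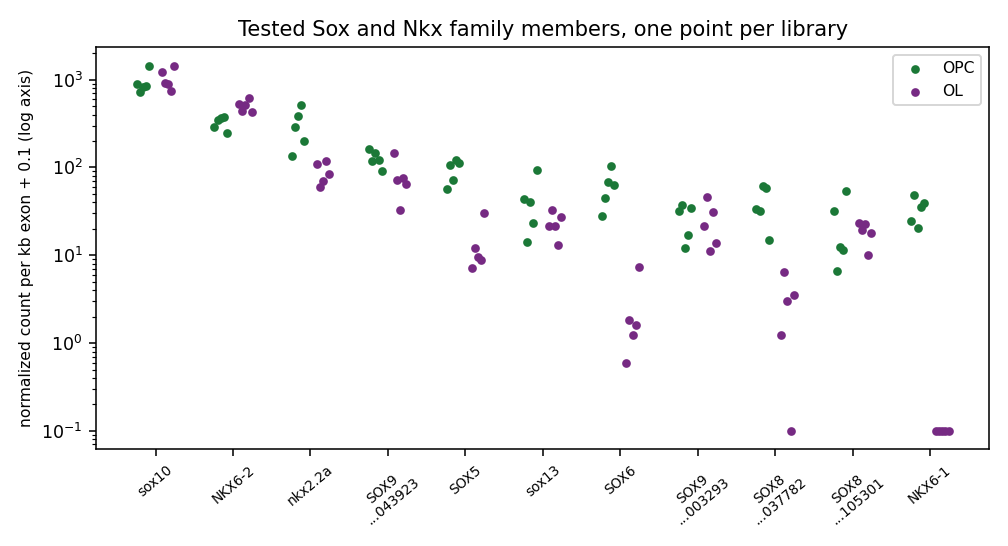
Normalized counts per kb of exon, plus 0.1, on a log axis (y) for the tested SoxE, SoxD, NK2 and NK6 genes (x axis, by falling mean), with OPC libraries left of OL libraries and 1 point per library. The sox10 points are the highest in both populations, and the 5 NKX6-1 points of OLs are at 0 counts. Digits after a symbol are the last of an identifier that shares the symbol with another.

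Among the relatives of sox10, SOX6, SOX5 and a SOX8 feature differed between the populations. SOX5 and SOX6 are SoxD genes. SoxD proteins lack an activation domain and in mouse modulate Sox10 in oligodendrocyte precursors. All 8 SoxE and SoxD features passed the filter, 3 were higher in OPCs, 0 were lower and 5, sox10 among them, were not called, with a median log2 fold change of 0.79 beside 0.06 over all features. Beside this and the later lists stand 9.01% of all tested features called higher in OPCs and 2.82% called lower. SOX6 (ENSDARG00000015536) had 165, 264, 397, 603 and 365 normalized counts in OPC1 to OPC5, and 2.86, 10.2, 6.70, 8.89 and 42.3 in OL1 to OL5. The populations were far apart, with OL5 the highest OL library (log2 fold change 4.66 ± 0.63 SE, adjusted p = 0.000252, edgeR). SOX5 (ENSDARG00000011582) had 361, 678, 464, 767 and 720 in OPC1 to OPC5, and 45.0, 76.9, 60.3, 56.3 and 192 in OL1 to OL5. Again no library overlapped and OL5 stood highest among OLs (log2 fold change 2.80 ± 0.40 SE, adjusted p = 0.000356, edgeR).

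The SoxE relatives were less abundant than sox10 per length. Both SOX8 and SOX9, which overlap in function with Sox10 in mouse glia, are assigned to 2 features each. How the counting treated reads shared by such copies is not given in the sources used here, so each value is uncertain to that extent. One SOX8 feature (ENSDARG00000037782) averaged 76.2 ± 37.6 normalized counts in OPCs and 5.25 ± 4.58 in OLs (± SD, 5 libraries each) and was higher in OPCs (log2 fold change 3.83 ± 0.76 SE, adjusted p = 0.00406, edgeR). The other (ENSDARG00000105301) averaged 57.9 ± 49.3 in OPCs and 46.4 ± 13.2 in OLs (adjusted p = 0.800, edgeR), and its sign turned under some settings. Of the SOX9 features, ENSDARG00000043923 averaged 447 ± 95.4 in OPCs and 275 ± 143 in OLs (log2 fold change 0.70, adjusted p = 0.206, edgeR). Without OL1, its highest OL library, the log2 fold change was 1.04 and the adjusted p = 0.0279 (edgeR). The second SOX9 feature, ENSDARG00000003293, averaged 48.0 ± 20.6 in OPCs and 44.5 ± 25.7 in OLs (adjusted p = 0.930, edgeR), with a sign that also turned. The SoxD gene sox13 (ENSDARG00000030297) averaged 236 ± 169 in OPCs and 128 ± 41.4 in OLs (adjusted p = 0.255, edgeR).

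Of the 12 features of the NK2 and NK6 families, only nkx2.2a, NKX6-1 and NKX6-2 passed the filter. The second copy of the gene, nkx2.2b (ENSDARG00000101549), had 0 counts in every library, which allows up to 3 counts in each, and the remaining 8 had at most 7 counts in any library. NKX6-1 (ENSDARG00000022569), a factor of the motor neuron and oligodendrocyte progenitor domain, had 50.0, 98.5, 41.6, 71.2 and 78.5 normalized counts in OPC1 to OPC5 and 0 counts in every OL library. Set against a floor of 3 counts in each OL library, its OPC level was at least 24.6-fold higher (adjusted p = 0.000111, edgeR). NKX6-2 was the gene of the family that was lower in OPCs. In mouse, Nkx6-2 is a factor of myelinating oligodendrocytes. It had 665, 790, 835, 856 and 563 normalized counts in OPC1 to OPC5, and 1217, 1006, 1169, 1407 and 965 in OL1 to OL5. No library overlapped, and the log2 fold change was -0.64 ± 0.17 (SE; adjusted p = 0.0247, edgeR). This call was lost without OPC1 (-0.60, adjusted p = 0.0514, edgeR), without OL4 (-0.57, adjusted p = 0.0565, edgeR), with library size alone (-0.34, adjusted p = 0.154, edgeR), with 10 counts asked of each library (-0.61, adjusted p = 0.0539, edgeR) and at a threshold of 0.01.

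Several other factors of the lineage were higher in OPCs. Of 23 listed features, 18 passed the filter, 8 were higher in OPCs, 0 were lower and 10 were not called, with a median log2 fold change of 0.66. Over all tested features 9.01% were called higher and 2.82% lower. With at least 10 counts asked of every library, 12 listed features were tested and 3 were higher in OPCs. Of all 9204 features tested under that filter, 284 were called higher and 165 lower. The basic helix-loop-helix factor olig1 (ENSDARG00000040948) had 1243 ± 363 normalized counts in OPCs and 24.0 ± 22.8 in OLs (± SD, 5 libraries each; log2 fold change 5.66, adjusted p = 2.2e-05, edgeR). The proneural factor ascl1a (ENSDARG00000038386) had 205 ± 102 in OPCs and 13.1 ± 9.99 in OLs (log2 fold change 3.96, adjusted p = 0.00155, edgeR). Among inhibitors of differentiation, id2b (ENSDARG00000029544), whose product sequesters helix-loop-helix partners, had 398 ± 290 in OPCs and 7.91 ± 7.72 in OLs (log2 fold change 5.58, adjusted p = 0.000337, edgeR). The largest fold on the list was that of egr1 (ENSDARG00000037421), an immediate early gene that cells also induce on stimulation, with 2471 ± 1016 in OPCs and 3.31 ± 3.66 in OLs (log2 fold change 9.51, adjusted p = 2.73e-06, edgeR).

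The next pair of genes was chosen after its values were seen. So were erbb3b, PDGFRA, PMP22, the uncalled NTN1 feature, GFAP, GLUL, FABP7, SLC1A2, SYT1, ELAVL3, ELAVL4 and apoeb further on. OLIG2 (ENSDARG00000040946), whose regulatory sequence drives the OPC reporter, had 17171 ± 4136 normalized counts in OPCs and 3722 ± 1484 in OLs (± SD, 5 libraries each; log2 fold change 2.21, adjusted p = 0.000106, edgeR). MYRF (ENSDARG00000078676), the myelin regulatory factor that in mouse acts with Sox10 on myelin genes, had 1498, 1001, 1056, 880 and 3015 in OPC1 to OPC5, and 985, 1929, 1387, 1527 and 1619 in OL1 to OL5. As for sox10, the populations overlapped and OPC5 was the highest library (log2 fold change 0.0010, 95% interval -0.69 to 0.69, adjusted p = 0.999, edgeR). Without OPC5 the log2 fold change of MYRF was -0.42 (adjusted p = 0.231, edgeR).

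**Figure D4:**
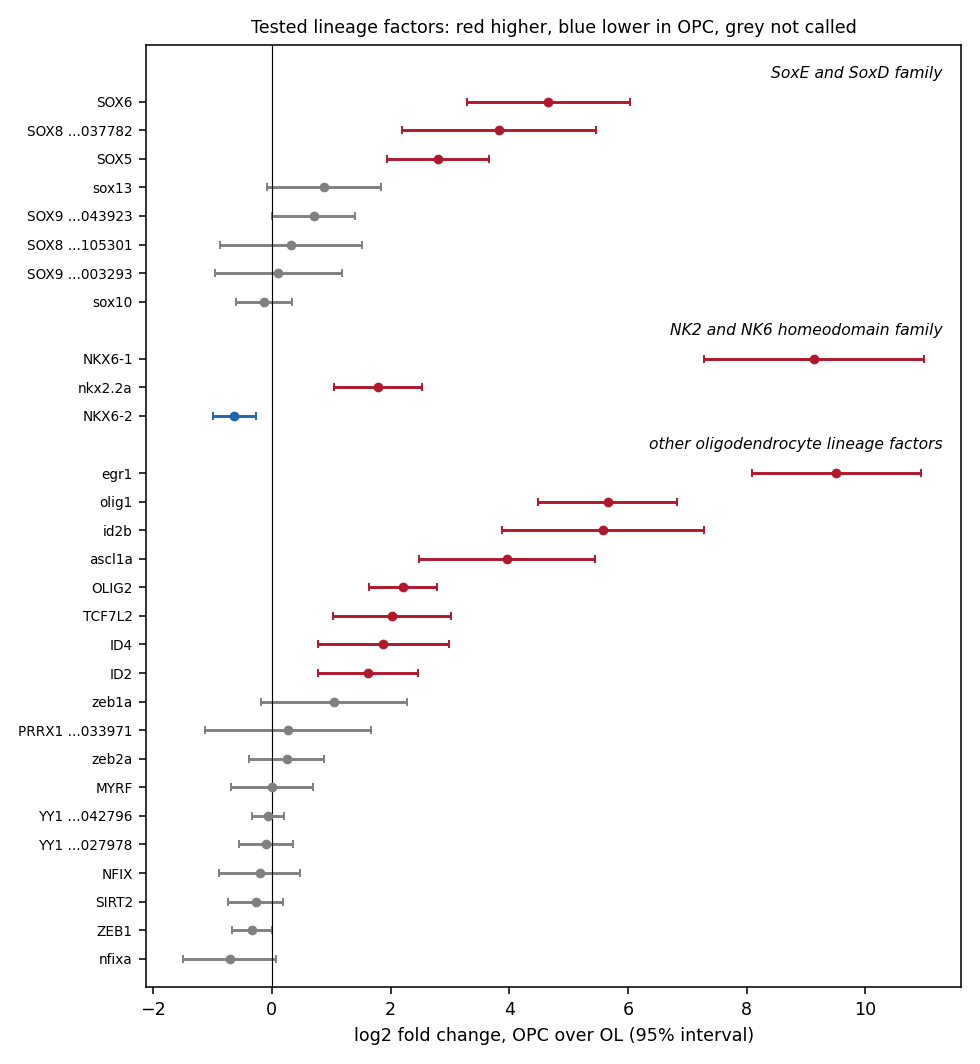
Log2 fold change of OPCs over OLs with its 95% interval (x axis) for each tested SoxE, SoxD, NK2 and NK6 gene and other lineage factor (y axis). Red marks genes higher in OPCs, blue lower and grey not called. The interval of sox10 spans 0 from -0.60 to 0.34, that of nkx2.2a runs from 1.04 to 2.53, and the fitted value of NKX6-1, with 0 counts in OLs, depends on the prior count of the fit.

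Of the genes that depend on Sox10 in myelinating cells of other vertebrates, or that are classic myelin or precursor genes, 18 features were listed and 14 were tested. Among them 3 were higher in OPCs, 4 were lower and 7 were not called (median log2 fold change 0.05). Among the lower genes were the myelin protein genes mbpa, plp1b (ENSDARG00000011929) and cldnk (ENSDARG00000042357), which fell by 0.81, 0.81 and 0.63 on the log2 scale in that order (edgeR adjusted p = 0.000638, 0.00142 and 0.00948). With library size alone the call of cldnk was lost (-0.34, adjusted p = 0.0905, edgeR). The 3 higher genes were nkx2.2a itself, a neuregulin receptor gene, ERBB3 (ENSDARG00000006202), and cnp (ENSDARG00000070822). ERBB3 had 125 ± 32.2 normalized counts in OPCs and at most 3 counts in an OL library (at least 45.0-fold higher against a floor of 3 counts in each OL library, adjusted p = 2.4e-05, edgeR). The other copy of this receptor gene, erbb3b (ENSDARG00000036993), was more abundant and was not called. It had 1036 ± 561 in OPCs and 974 ± 150 in OLs (adjusted p = 0.904, edgeR). The gene cnp had 192 ± 23.7 in OPCs and 106 ± 26.1 in OLs (adjusted p = 0.0299, edgeR), a call that was lost when any of OPC2, OPC3, OPC4, OL2, OL3 or OL5 was left out (log2 fold change 0.77 to 0.85, adjusted p = 0.0580 to 0.0743, edgeR). It was also lost without a filter (adjusted p = 0.0558, edgeR), with the replicate number as a block (adjusted p = 0.0591, edgeR) and at a threshold of 0.01. PDGFRA (ENSDARG00000070494), whose mouse counterpart is repressed by Nkx2.2, did not pass the filter and had at most 34 counts in any OPC sample and 1 in any OL sample.

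Upstream of nkx2.2a, most genes of the Hedgehog pathway had few reads in either population. Of 19 listed features 6 passed the filter, and 1 of these was higher in OPCs, 0 were lower and 5 were not called (median log2 fold change -0.24). The gene that differed was HHIP (ENSDARG00000060397), whose product binds and sequesters Hedgehog ligands. It had 17.0, 335, 107, 192 and 237 normalized counts in OPC1 to OPC5, and 0.714, 0, 0, 8.89 and 27.2 in OL1 to OL5. OPC1 lay within the range of OLs (log2 fold change 4.59 ± 1.09 SE, adjusted p = 0.0139, edgeR). Groucho co-repressors and histone deacetylases are families that include partners of Nkx2.2 and other repressors. Of 11 listed features of these families, 10 were tested and 0 were called by edgeR in either direction (median log2 fold change -0.28). At an unadjusted p under 0.05, 1 of these was higher in OPCs and 3 were lower, and DESeq2 called 1 higher and 2 lower. Under other settings limma voom called 1 lower, and edgeR called 2 higher with library size alone, 1 higher with the replicate block or without OL5, 1 lower without a filter, OPC3 or OPC4, and 1 in each direction without OPC1. Over all 12292 features, DESeq2 called 1395 higher and 589 lower, and limma voom 1379 higher and 638 lower. In edgeR, library size alone called 1811 of 12292 higher, the block 1033 of 12292 and leaving out OL5 1315 of 12770. Lower were 372 of 25313 without a filter, 277 of 12624 without OPC3 and 338 of 12610 without OPC4. Without OPC1, 1298 of 12799 were higher and 352 lower.

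Because Sox10 and Nkx2.2 also mark other cells, the markers of those cells were examined beside them. Neural crest and Schwann cell genes were mostly at or near 0. FOXD3 (ENSDARG00000021032) had 0 counts in every library, and 9 of 12 features did not pass the filter. The whole list summed to 400 to 852 normalized counts in OPCs and 140 to 364 in OLs, with pmp22a (ENSDARG00000105223) and NGFR (ENSDARG00000088708) called higher in OPCs. In OPCs pmp22a had 294 ± 152 and NGFR 43.1 ± 27.2, and in any OL library they had at most 1 and 3 counts in that order. Most of the sum in OLs came from PMP22 (ENSDARG00000060457), which was not called. It had 285 ± 200 in OPCs and 232 ± 99.1 in OLs (adjusted p = 0.804, edgeR). Genes of the floor plate and the neighbouring Nkx2.2 domain were likewise scarce. FOXA2 (ENSDARG00000003411), nkx2.9 (ENSDARG00000020332) and 1 SHH feature (ENSDARG00000068567) had 0 counts in every library, 8 of 10 features did not pass the filter, and the list summed to 72.0 to 279 in OPCs and 28.2 to 53.4 in OLs. Only the NTN1 feature ENSDARG00000022531, which encodes netrin, was called, with 81.7 ± 70.2 in OPCs and at most 1 count in an OL library. The other NTN1 feature (ENSDARG00000105112) was not called, with 30.2 ± 19.0 in OPCs and 38.8 ± 9.23 in OLs (adjusted p = 0.741, edgeR).

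Some markers of neurons and radial glia moved with the populations. Of 12 neuron features 8 were tested, 5 were higher in OPCs and 0 lower, and the list summed to 7145 to 9808 normalized counts in OPCs and 6628 to 8255 in OLs. Most of these sums came from the RNA-binding protein genes ELAVL3 (ENSDARG00000014420), with 4938 ± 1079 in OPCs and 5631 ± 944 in OLs, and ELAVL4 (ENSDARG00000045639), with 1462 ± 166 in OPCs and 1643 ± 238 in OLs. Neither was called (adjusted p = 0.579 for ELAVL3 and 0.550 for ELAVL4, edgeR). SNAP25 (ENSDARG00000020609), a synaptic protein gene, had 303, 1117, 1140, 1992 and 755 in OPC1 to OPC5, and at most 75.1 in an OL library. Of the STMN2 features, which encode stathmins of growing neurites, ENSDARG00000033234 had 99.0, 235, 280, 543 and 157 in OPC1 to OPC5 and 0 counts in every OL library. Both genes ranked the OPC libraries in the order seen for nkx2.2a, with OPC4 highest and OPC1 lowest, and their part in the nkx2.2a difference was not tested. The other STMN2 feature called (ENSDARG00000070537) and map2 (ENSDARG00000055052), a neuronal microtubule gene, were also highest in OPC4 and lowest in OPC1, with another order in between. These extremes were not particular to neuron genes, as olig1, SOX5, SOX6, ascl1a, id2b and egr1 were also highest in OPC4 and lowest in OPC1. Other called factors differed, with OLIG2 highest in OPC5 and NKX6-1 in OPC2. The fifth neuron gene called, SYT1 (ENSDARG00000030614), was highest in OPC2 and lowest in OPC3, with 36.2, 111, 34.9, 74.5 and 104 in OPC1 to OPC5 and at most 16.8 in an OL library. Of 15 radial glia features 12 were tested, 6 were higher in OPCs and 1, SLC1A3 (ENSDARG00000104431), was lower. SOX2 (ENSDARG00000070913) had 89.4, 136, 94.5, 87.7 and 25.2 in OPC1 to OPC5 and at most 2 counts in an OL library. VIM (ENSDARG00000044501), an intermediate filament gene, had 421 to 1114 in OPCs and at most 28.2 in OLs, while the second VIM feature (ENSDARG00000010008) was not called. The Notch targets her4.1 (ENSDARG00000056732) and her4.2 (ENSDARG00000094426), near-identical copies whose reads could be split between them, were at least 74.1-fold and 125-fold higher against the floor of 3 counts in each OL library. The radial glia list summed to 117299 to 163318 in OPCs and 106246 to 154871 in OLs, most of it in GLUL features that were not called. FABP7 (ENSDARG00000007697) had 15017 ± 5655 in OPCs and 442 ± 245 in OLs (log2 fold change 5.09, adjusted p = 1.6e-05, edgeR). SLC1A2 (ENSDARG00000102453) had 1422 ± 636 in OPCs and 53.0 ± 55.3 in OLs (log2 fold change 4.73, adjusted p = 0.000862, edgeR). GFAP (ENSDARG00000025301), an intermediate filament gene of radial glia, had 24.5 to 205 in OPCs and 14.5 to 49.8 in OLs and was not called (adjusted p = 0.110, edgeR). Of 9 microglia and leukocyte features 4 were tested and 0 called by edgeR (1 lower in OPCs at an unadjusted p under 0.05 and by DESeq2), and 0 of 5 endothelial features passed the filter. The microglia and leukocyte list summed to 2158 to 7014 in OPCs and 3713 to 14775 in OLs. Most of these sums came from apoeb (ENSDARG00000040295), with 3698 ± 1884 in OPCs and 9254 ± 4848 in OLs (adjusted p = 0.0515, edgeR). The part of these cells in the levels of sox10 and nkx2.2a was not tested.

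The features most like each gene were sought by Pearson's r of log2(normalized count + 1) over the 10 libraries, among 7411 features averaging 100 or more. These values are a description of libraries that share their population and preparation. Closest to sox10 were MEX3B (ENSDARG00000058369; r = 0.949), which encodes an RNA-binding protein, si:ch211-200p22.4 (ENSDARG00000029170; r = 0.931) and GPR37 (ENSDARG00000033296; r = 0.906), a receptor gene of oligodendrocytes in mouse. They shared with sox10 the high values of OPC5 and OL5. GPR37, for example, had 183, 123, 215, 149 and 593 normalized counts in OPC1 to OPC5, and 227, 260, 204, 177 and 569 in OL1 to OL5. Closest to nkx2.2a were ATCAY (ENSDARG00000071678; r = 0.965), which encodes the neuronal protein caytaxin, tafa3b (ENSDARG00000020292; r = 0.959), which encodes a small secreted protein, and CYRIA (ENSDARG00000006672; r = 0.952), which encodes a partner of the GTPase Rac. ATCAY had 673, 2059, 2168, 3652 and 1007 in OPC1 to OPC5, and 264, 264, 359, 574 and 383 in OL1 to OL5. It thus ranked the OPC libraries as nkx2.2a did, with r = 0.984 within OPCs and 0.495 within OLs.

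**Figure D5:**
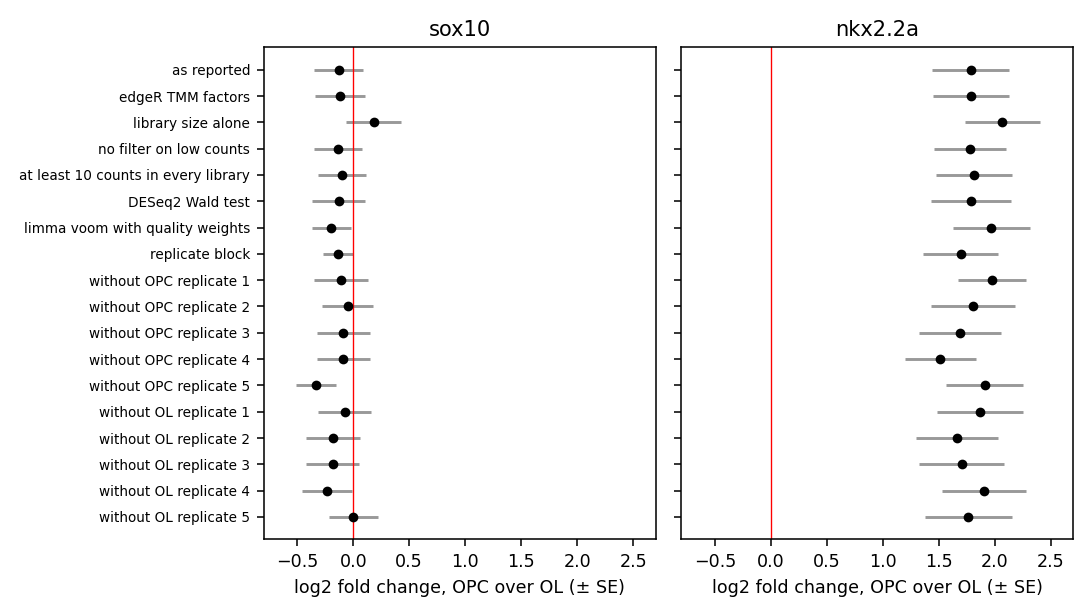
Log2 fold change of OPCs over OLs ± SE (x axis, the same scale in both panels) of sox10 (left) and nkx2.2a (right), as reported and with other normalizations, filters, tests, a replicate block or 1 library left out (y axis). The values of sox10 lie between -0.33 and 0.18 on both sides of 0, and those of nkx2.2a between 1.52 and 2.07.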

How the data were processed

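The authors demultiplexed single-end reads with bcl2fastq 2.17.1.14, mapped them to GRCz10 with GSNAP and counted them per Ensembl gene with featureCounts 1.5.2 (names and versions from the submitters' processing notes and the paper). They deposited raw counts and the exon length of each gene for 31388 features, without normalization. Full-length cDNA was amplified by PCR, and no molecular identifiers are stated, so Poisson intervals of raw counts cover counting error only, while intervals of fold changes include the spread between libraries. The multi-mapping and strand settings are not given in the sources used here.

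Features were kept by filterByExpr (12292), divided by size factors from DESeq2 1.42.0 (0.889 to 1.40) and compared between 5 OPC and 5 OL libraries in R 4.3.3 by the quasi-likelihood F-test of edgeR 4.0.16 (limma 3.58.1 for the alternative), with Benjamini-Hochberg adjustment over all tested features and a threshold of 0.05. SEs were derived from the F statistic. The procedure was also run on simulated counts with equal numbers of changes in each direction. The data here do not share that setting, so the run lends no support to the results. Exact permutation tests used scipy 1.17.1 in Python 3.11.15. Pairs of libraries of one population differed beyond sampling noise (chi-square over its degrees of freedom, lowest value 31.3), so none was counted as a copy.

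The 2 genes and the lists were chosen with earlier results of these data known. Names come from a gene table that pairs identifiers with symbols, often those of the human gene, in capitals. Of 155 list entries, 146 were matched, by the symbol with or without its copy letter, to 150 features. Named were the 2 genes, all tested SoxE, SoxD, NK2 and NK6 features, neighbours, the 3 features most like each gene and, of other lists, up to 4 called genes per direction with the largest fold. Of those, not all are given one by one, and 1 result is not reported here. Alternatives were edgeR's TMM, library size alone, no filter, at least 10 counts in every library, DESeq2's Wald test, limma voom, a replicate block, a threshold of 0.01, other pseudocounts and each library left out.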

Additional observations from a re-analysis of the deposited data

Results flagged for a closer look

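Among the named genes and the ratio of sox10 to nkx2.2a, 58 groups of 5 libraries averaging 10 or more normalized counts were examined for a library far from the others, a minimum set after the data were seen. Of these, 5 held a library whose gap to its nearest neighbour exceeded 0.71 of the range of the group. For normally distributed values chance gives about 1 in 20, or 2.9. Counts need not be so distributed, and OLIG2 and MYRF were chosen after their values were seen. The 5 and the 2.9 therefore cannot be compared as a test. In OPCs all such libraries were OPC5. It had 4623 normalized counts of sox10 (other OPC libraries 2322 to 2854), 24346 of OLIG2 (13681 to 16225) and 3015 of MYRF (880 to 1498). In OLs both were OL5, which had 192 normalized counts of SOX5 (45.0 to 76.9 in the other OL libraries) and 42.3 of SOX6 (2.86 to 10.2). No explanation was tested.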

How the results depend on the processing

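The cause of the changes below was not tested. In place of 1455 differing features, 2336 were called with no filter, 449 when each library had to hold 10 counts or more, 877 at an adjusted p under 0.01 and 1282 to 1796 with each library left out. For nkx2.2a, all 18 alternatives kept the direction and the call at their threshold (log2 fold change 1.52 to 2.07, adjusted p from 8.0e-06 to 0.0114). None of the 18 gave a call for sox10, whose log2 fold change turned to 0.18 with library size alone and lay between -0.33 and 0.0014 when single libraries were left out, positive without OL5 alone. Library size alone moved the median over the tested features to 0.36, in place of 0.06 on the log2 scale, so that sox10 stayed below that median. The ratio of sox10 to nkx2.2a kept its direction in 14 of 14 alternatives. With the replicate block its difference was -1.82 (exact p = 0.0625, the smallest that 5 pairs allow). The block changed neither gene's call (sox10 -0.14, nkx2.2a 1.69) and gave 1407 differing features. Deviations of same-numbered libraries correlated by 0.024 to 0.105, and 4 of 5 OPC libraries correlated best with the OL library of their own number, a hint from the data and not from the design.

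Of 592 values of 34 other genes (those of the naming rule, with OLIG2 and MYRF added), 557 kept direction and call, 17 lost the call, 2 gained it and 16 turned sign. The signs that turned belonged to uncalled genes, 8 of them to MYRF. SOX8 (ENSDARG00000105301) was at -0.36 with limma voom, -0.020 with the block and -0.26 to 0.56 with libraries left out. SOX9 (ENSDARG00000003293) was at -0.26 with limma voom and -0.080 to 0.45 with libraries left out. MYRF was at -0.0044 without a filter, -0.41 with limma voom, -0.13 with the block and -0.42 to 0.14 with libraries left out. Asking for 10 counts in each library removes genes missing from one population, and left fewer features higher in OPCs (1 in place of 3 SoxE and SoxD, 1 in place of 2 NK2 and NK6, 3 in place of 8 other lineage factors, 0 in place of 1 Hedgehog, 2 in place of 3 myelin and target, 1 in place of 6 radial glia, and 0 in place of 5 neuron, 2 neural crest and 1 floor plate features). The lists then held 6, 2, 12, 4, 13, 7, 3, 1 and 1 tested features in that order. Of all features, 284 of 9204 were then higher in OPCs, in place of 1108 of 12292. Without a filter, 5 of 18 Hedgehog features in place of 1 of 6 were higher, beside 1964 of all 25313 features. With library size alone, 2 of 14 myelin and target genes in place of 4 were lower, beside 118 of all 12292 features.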
